A study of Mus musculus with 18 samples.

Results

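The contrast examined here is the effect of ATPgs minus the effect of adenosine on gene expression in mouse double negative T cells (DNT cells), that is, T cells that carry neither CD4 nor CD8, obtained by converting CD4+ T cells. It used 12 of the 18 RNA sequencing libraries of the study and the genes that both of their count tables list, 52506 in all, of which 15788 had enough counts to be tested. The cells came from spleen and lymph node of wild type mice, and all libraries, the untreated ones included, were labelled as stimulated with antibodies to CD3 and CD28. Set 1 held 3 libraries without ligand (WT) and 3 libraries with 400 µM ATPgs for 6 h (WTATPgs). Set 2 held 3 libraries without ligand (DNT) and 3 libraries with 400 µM adenosine for 6 h (ADO). A further set of 6 libraries, in which the cells also received 250 nM of a blocker of A2a, a receptor for adenosine, without adenosine (R) or with 400 µM of it (RA), was used for description only. The labels give no age, sex or number of animals.

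Extracellular ATP is sensed by P2 receptors, of which the P2X members are ion channels and the P2Y members are coupled to G proteins. Cell surface enzymes cut ATP to AMP (CD39, encoded by Entpd1) and AMP to adenosine (CD73, encoded by Nt5e), and adenosine is sensed by receptors of its own, of which A2a and A2b raise cyclic AMP and are known to damp T cell activation. ATPgs is adenosine that carries a triphosphate chain with sulfur on its last phosphate, which slows its breakdown, and adenosine is the bare nucleoside, so the compounds form 1 pair, compared at 1 dose and 1 time. Each ligand was measured against the untreated libraries of its own set, so a difference between the sets that all 6 libraries of a set share drops out. Ligand and set coincide in this design, however, and whether the ligand or the set gave a difference in effect cannot be told apart. Whether replicate libraries stem from different mice or different wells is not stated by the labels. The p-values thus cover only library to library spread, possibly technical.

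The libraries held 21967706 to 24331577 counts. T cell genes were present throughout: the 23 T cell identity genes summed to between 5407 and 6576 CPM (counts relative to the library total, scaled for composition), while Cd4 averaged 9.24 CPM in WT and 1.12 CPM in DNT and Cd8a averaged 11.6 and 23.6 CPM. One library stood apart from its group. WTATPgs replicate 3 differed from replicates 1 and 2 with a chi-square per degree of freedom of 25.3 and 25.4 over genes, against 1.65 to 2.39 for every other pair of replicates in the 4 groups. The 18 tested markers of macrophages, monocytes and neutrophils summed to 303 and 309 CPM in WTATPgs replicates 1 and 2, but to 78.6 CPM in replicate 3, against 66.9 to 72.3 CPM in WT. In set 2 the same sum was 17.9 to 20.1 CPM in DNT and 31.1 to 34.3 CPM in ADO, and S100a8 and S100a9, which define neutrophils and monocytes, were at or below 0.0738 CPM there in the group means. B cell markers moved in the same way, with 199.98 and 194 CPM in WTATPgs replicates 1 and 2, 81.8 CPM in replicate 3 and 114 to 119 CPM in WT, and markers of natural killer (NK) cells with 1003, 1003 and 679 CPM against 661 to 670.3 CPM. Their part in the results was not tested. In RNA from whole cultures, fewer cells of a type and less RNA per cell cannot be told apart. For these reasons the counts of called differences in each list are given below for all 12 libraries, without WTATPgs replicate 3, and with replicate 3 as the only WTATPgs library. The last choice was added after seeing the data, and it assumes that the lone library varies like the other groups.

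**Figure D1:**
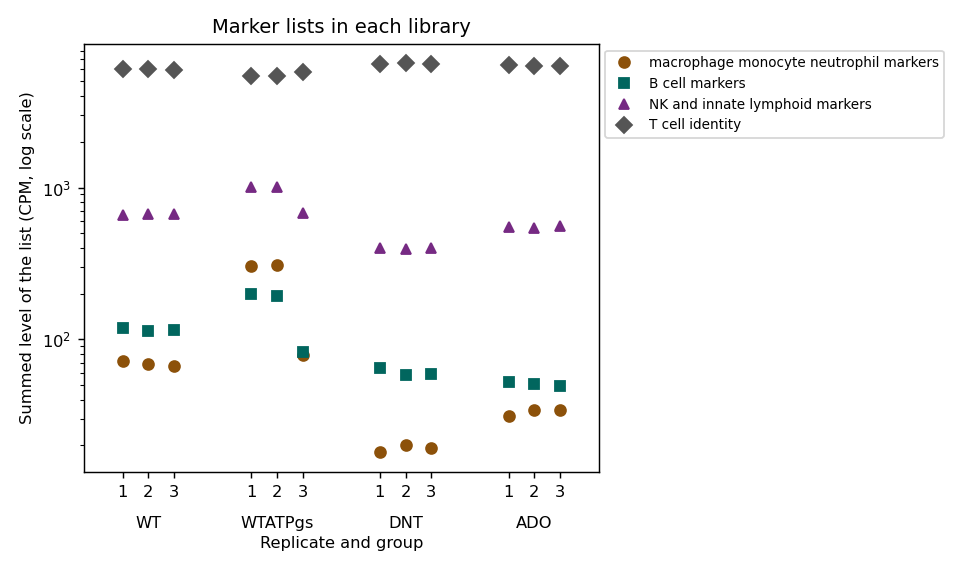
Summed level of 4 marker lists (vertical axis, CPM on a log scale) in each of the 12 libraries (horizontal axis, replicates 1 to 3 of each group); each point is 1 library. Macrophage, B cell and NK marker sums lie higher in WTATPgs replicates 1 and 2 than in replicate 3, while the sum of T cell identity genes stays between 5407 and 6576 CPM.

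The ligands shared much of their effect, yet they differed at many genes. A gene was called at an adjusted p under 0.05 (edgeR's quasi-likelihood test, two-sided, with p adjusted by Benjamini-Hochberg across 15788 genes), and effects are log2 fold changes over the untreated group of the same set. With ATPgs 3370 genes rose (21.3% of those tested) and 3280 fell (20.8%), and with adenosine 2998 rose (19.0%) and 2751 fell (17.4%). Of the 6650 genes called with ATPgs and the 5749 called with adenosine, 3685 were called with both, and 3434 of these moved in the same direction. The effects correlated across genes with Pearson's r of 0.488 and a Spearman rank correlation of 0.495, as a description over 15788 genes that are not independent and share their libraries. The difference itself was called for 2724 genes (17.3%), of which 1284 (8.13%) had the higher effect with ATPgs and 1440 (9.12%) the lower, and 330 of the 2724 differed at least 2-fold.

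Genes called with 1 ligand and not the other are not by that alone specific to it: of 2965 genes called with ATPgs and not adenosine, the difference was missed for 1949, and of 2064 called with adenosine and not ATPgs it was missed for 1348. Only genes whose difference passed were therefore sorted into classes. By this rule 1016 genes (6.44%) responded to ATPgs only, 509 upward and 507 downward. Another 716 genes (4.54%) responded to adenosine only, 416 upward and 300 downward, and 251 genes (1.59%) moved in opposite directions, 147 up with ATPgs and down with adenosine and 104 the reverse. The other called genes moved in the same direction with unequal size (692) or had no single effect called (49). The balance of the classes depended on how the spread was shared between the sets. With single effects from each set fitted alone, 721 genes responded to ATPgs only, 863 to adenosine only and 282 in opposite directions. With limma-voom and weights per set these numbers were 797, 841 and 276. The 95% interval of the other ligand's effect lay within 0.5 of 0 on the log2 scale for 372 of the 509 and 473 of the 507 ATPgs genes. It did so for 362 of the 416 and 253 of the 300 adenosine genes.

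**Figure D2:**
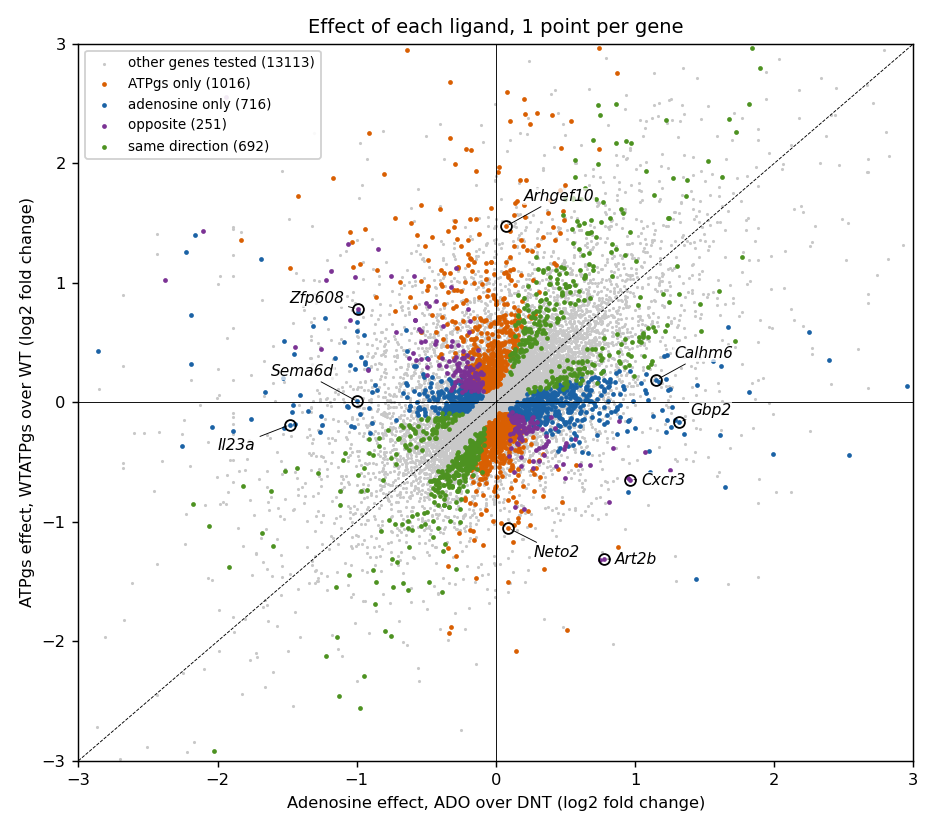
Effect of adenosine (horizontal axis, log2 fold change of ADO over DNT) against effect of ATPgs (vertical axis, log2 fold change of WTATPgs over WT), 1 point per gene, coloured by class; 73 genes lie outside the axes and the dashed line marks equal effects. The 1016 genes that responded to ATPgs only lie along the vertical axis, the 716 that responded to adenosine only along the horizontal axis, and the 251 opposite genes at the upper left and lower right.

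The class of a gene depended on the library that stood apart. Without WTATPgs replicate 3 the difference was called for 2309 genes with a higher effect of ATPgs (14.2%) and 3058 with a lower (18.8%), and with replicate 3 as the only WTATPgs library for 1903 (11.3%) and 1892 (11.3%). The counts in each list below stand beside these shares of all genes, which were higher than in the 12 libraries under both choices. In the 12 libraries the effect of ATPgs was higher for 8.13% of all genes and lower for 9.12%. A list count near the share of all genes under the same choice says nothing particular about that list. All 2724 differences kept their sign with replicate 3 alone. Because replicate 3 and the same libraries of the other groups had helped to select these genes, that agreement was largely built in. Among the 13064 genes not called, 10061 kept their sign. In the class of ATPgs only and up, 378 of 509 genes were in the same class without replicate 3, and 266 with it alone. For adenosine only and up these numbers were 332 and 229 of 416. In the opposite classes 144 of 147 and 99 of 104 genes were in the same class without replicate 3. A one-ligand gene leaves its class once its other effect is called, which cannot happen to an opposite gene, so these shares are not alike. In all 12 fits that left out 1 library, 65 of the 147 and 49 of the 104 opposite genes kept their class. So did 175 of the 509 and 161 of the 416 genes. The genes named below as leading a class were taken from those that kept their calls when any 1 of the 12 libraries was left out. For each ligand that defines the class, their treated libraries also had to lie on 1 side of all untreated ones. That these groups do not overlap was thus fixed by the choice of the leading genes and adds no support. Of these 36 leading genes, 12 had no called difference against a log2 change of 0.5: Ndrg4, Axin2, Gzmg, Src, Rapgef5, Tnip3, Gnb5, Cetn4, Calhm6, Fbxo48, Gdpd5 and Cass4. With all 18 libraries in 1 fit the difference was not called for Klf11, Rapgef5, Cetn4, Fbxo48 and Cass4.

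Of 26 tested genes for purine enzymes, receptors and transporters, 3 differed with a higher and 5 with a lower effect of ATPgs, and the counts were 6 and 7 without WTATPgs replicate 3 and 3 and 11 with it alone. Entpd1 (CD39, ENSMUSG00000048120, chr19:40612366-40741602 in GRCm38) had 60.4, 61.2 and 58.4 CPM in WT and 78.5, 76.03 and 68.7 CPM in WTATPgs. In set 2, Entpd1 had 79.5, 76.3 and 75.9 CPM in DNT and 59.3, 57.5 and 58.2 CPM in ADO. It lay above every untreated library in WTATPgs and below every untreated library in ADO, with effects of 0.31 (SE 0.049, adjusted p = 6.7e-05) and -0.41 (SE 0.049, adjusted p = 6e-06). The difference was 0.72 (SE 0.069, adjusted p = 3e-06), 0.77 without WTATPgs replicate 3 and 0.59 with it alone. The enzyme of the next step did not part the ligands: Nt5e (CD73) rose by 0.78 with ATPgs and 0.88 with adenosine, and the difference was -0.10 (95% interval -0.42 to 0.21, adjusted p = 0.69). With replicate 3 as the only WTATPgs library that difference was -0.44 (adjusted p = 5.6e-07).

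Among the receptors for adenosine, Adora2a (A2a, ENSMUSG00000020178, chr10:75316877-75334784) had 145, 142 and 145 CPM in WT and 124, 124 and 112 CPM in WTATPgs. In set 2, Adora2a had 159, 158 and 159 CPM in DNT and 174, 174 and 172 CPM in ADO. The libraries of the groups did not overlap in either set, and the effects of -0.26 (SE 0.038, adjusted p = 3.5e-05) and 0.13 (SE 0.037, adjusted p = 0.014) had opposite signs. Adora2b (A2b) fell by 0.16 with adenosine and was not called with ATPgs, at 0.091 (95% interval -0.022 to 0.20, adjusted p = 0.19). It had a difference of 0.25 (95% interval 0.082 to 0.41, adjusted p = 0.038) that was lost without any 1 of the libraries except DNT replicate 3 and WTATPgs replicate 3. The call was also lost with limma-voom, with all 18 libraries, against a log2 change of 0.5 and with all genes kept. It was 0.29 without WTATPgs replicate 3 (adjusted p = 0.00025) and 0.13 with it alone (0.25). Art2b (ENSMUSG00000030651, chr7:101576970-101585600), a cell surface ADP-ribosyltransferase that can switch on the ATP-gated channel P2X7, had the largest difference of the 26 genes. Its libraries had 12.4, 12.2 and 12.3 CPM in WT and 5.23, 5.83 and 3.79 CPM in WTATPgs. In set 2, Art2b had 9.20, 8.16 and 10.2 CPM in DNT and 17.3, 14.8 and 15.1 CPM in ADO. All 3 WTATPgs libraries were below all WT libraries and all 3 ADO libraries above all DNT libraries, with effects of -1.31 (SE 0.13, adjusted p = 6.1e-07) and 0.78 (SE 0.12, adjusted p = 0.00011). P2rx7 itself had a difference of 0.035 (95% interval -0.80 to 0.88, adjusted p = 0.97), too wide an interval to show that the ligands act alike.

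Ada, adenosine deaminase, had effects of -0.50 with ATPgs and 0.094 with adenosine (adjusted p of the difference 0.0094), and Slc29a1, a transporter that carries adenosine across the membrane, had -0.47 with ATPgs and 0.047 with adenosine (3.2e-05); both were in the class of ATPgs only. Slc29a1 overlaps the antisense gene Gm17080, and since the strandedness of the counting is not given in the sources used here, reads of such pairs cannot be told apart. Dpp4, which encodes CD26, rose with adenosine only, with -0.18 with ATPgs and 0.56 with adenosine (0.00096). P2ry14, a receptor for UDP sugars, fell with adenosine only, with -0.049 with ATPgs and -0.31 with adenosine (0.035).

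Genes that fell with ATPgs and rose with adenosine included several receptors found on T cells. Slamf6 (ENSMUSG00000015314, chr1:171917515-171953170), a receptor of the SLAM family, had 5.22, 5.16 and 4.38 CPM in WT and 1.93, 2.12 and 1.85 CPM in WTATPgs. In set 2, Slamf6 had 4.32, 3.82 and 4.80 CPM in DNT and 6.37, 7.18 and 8.17 CPM in ADO. Cxcr3 (ENSMUSG00000050232, chrX:101731535-101734269), the receptor for the interferon-induced chemokines CXCL9 and CXCL10, had 7.64, 7.35 and 6.44 CPM in WT and 4.42, 4.10 and 5.14 CPM in WTATPgs. In set 2, Cxcr3 had 6.76, 8.40 and 8.43 CPM in DNT and 16.1, 15.2 and 14.8 CPM in ADO. In both genes every treated library lay outside the range of its untreated group, below it in set 1 and above it in set 2, as the rule for leading genes required. The effects were -1.32 with ATPgs and 0.75 with adenosine for Slamf6, a difference of -2.07 (SE 0.21, adjusted p = 5.6e-06), and -0.65 with ATPgs and 0.97 with adenosine for Cxcr3, a difference of -1.61 (SE 0.17, adjusted p = 6.5e-06). Slfn1, a Schlafen family member, had 28.6, 28.1 and 26.7 CPM in WT and 19.6, 18.4 and 15.7 CPM in WTATPgs. In set 2, Slfn1 had 32.9, 32.8 and 33.8 CPM in DNT and 63.7, 62.4 and 66.2 CPM in ADO, and its difference of -1.59 (SE 0.095, adjusted p = 2.9e-08) had the same form. Axin2, a target and brake of Wnt signalling (-0.52 with ATPgs and 0.68 with adenosine), and Itgax, the integrin CD11c (-0.51 with ATPgs and 0.48 with adenosine), completed the 6 leading genes of 43 that met the rule.

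In the reverse direction, up with ATPgs and down with adenosine, 63 genes met the rule. Zfp608, a zinc finger protein, had 6.68, 6.12 and 6.35 CPM in WT and 12.1, 12.5 and 8.39 CPM in WTATPgs. In set 2, Zfp608 had 17.9, 19.96 and 18.4 CPM in DNT and 9.18, 10.1 and 9.01 CPM in ADO. WTATPgs replicate 3 was the lowest treated library of set 1 but was still above all WT libraries, and the difference was 1.77 (SE 0.18, adjusted p = 4.3e-06), 1.93 without that library and 1.38 with it alone. Sema4a, a semaphorin that costimulates T cells, had 15.5, 15.8 and 16.7 CPM in WT and 23.3, 22.98 and 22.1 CPM in WTATPgs. In set 2, Sema4a had 58.7, 59.00 and 58.6 CPM in DNT and 40.2, 42.7 and 38.3 CPM in ADO. Its groups did not overlap and its treated libraries were close to each other, with effects of 0.51 (SE 0.059, adjusted p = 2.9e-06) and -0.54 (SE 0.053, adjusted p = 6.7e-07). The other leading genes were Stom, the membrane protein stomatin (0.69 with ATPgs and -0.58 with adenosine), Fam20a, a secreted pseudokinase (0.60 with ATPgs and -0.54 with adenosine), Tanc2, a scaffold protein (0.83 with ATPgs and -0.50 with adenosine), and Ndrg4 (0.51 with ATPgs and -0.51 with adenosine).

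**Figure D3:**
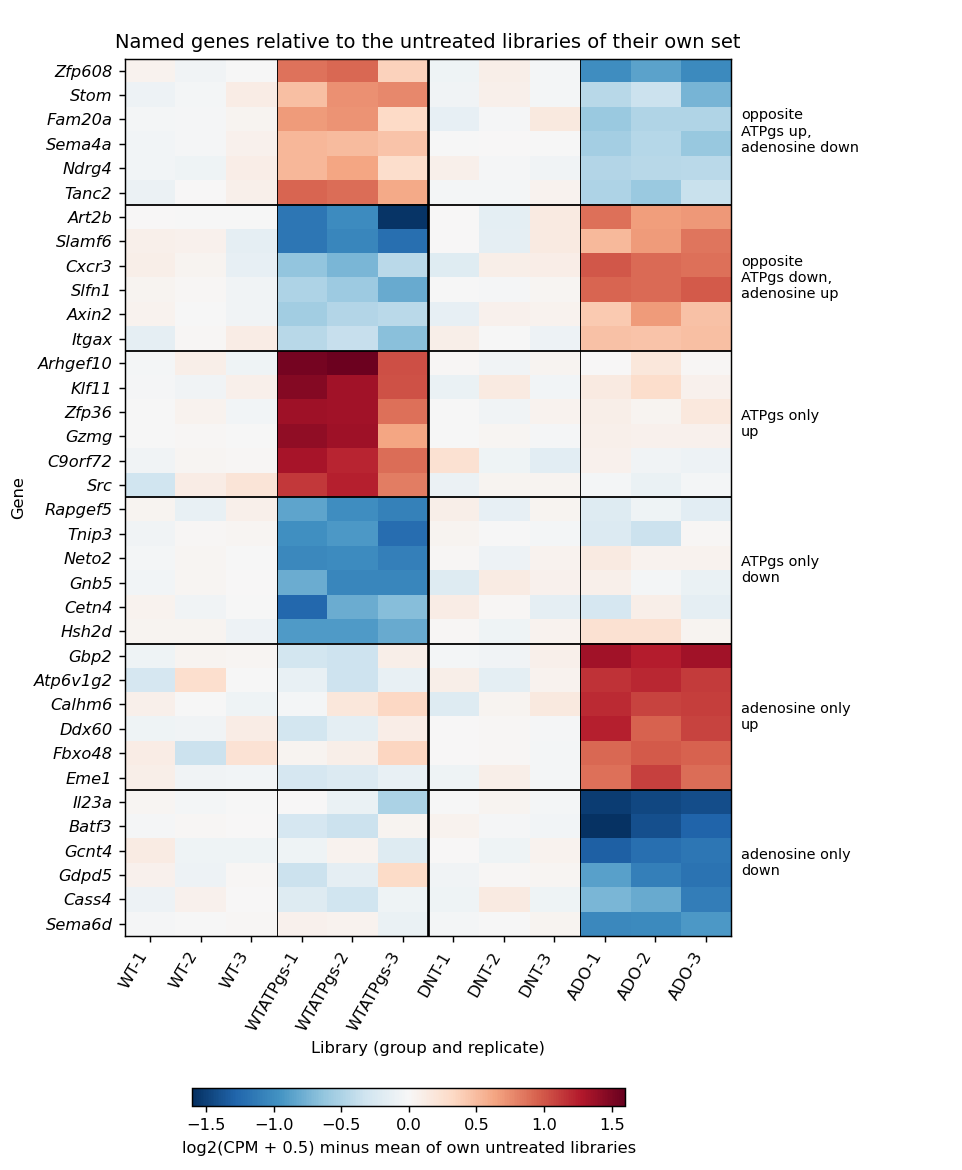
Level of the 36 genes that lead the 6 classes (rows) in the 12 libraries (columns), as log2(CPM + 0.5) minus the mean of the untreated libraries of the same set; red is higher and blue is lower, and lines part the classes, groups and sets. In the upper 12 rows the WTATPgs and ADO libraries have opposite colours, in the middle 12 only WTATPgs is coloured deeply and in the lower 12 only ADO, with paler rises in WTATPgs replicate 3 for the genes up with ATPgs only.

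Among genes that rose with ATPgs only, 199 met the rule. Arhgef10, a guanine nucleotide exchange factor, led with 5.49, 6.02 and 5.30 CPM in WT and 17.2, 17.6 and 11.97 CPM in WTATPgs. In set 2, Arhgef10 had 7.57, 7.18 and 7.75 CPM in DNT and 7.53, 8.55 and 7.59 CPM in ADO. Zfp36 (ENSMUSG00000044786, chr7:28376784-28380253), tristetraprolin, which binds AU-rich elements of cytokine mRNAs and speeds their decay, had 53.6, 56.04 and 52.5 CPM in WT and 139, 138 and 99.99 CPM in WTATPgs. In set 2, Zfp36 had 53.3, 51.4 and 55.5 CPM in DNT and 57.1, 55.1 and 59.9 CPM in ADO. In both genes WTATPgs replicate 3 was the lowest treated library, all 3 were above all WT libraries, and ADO and DNT overlapped. Zfp36 had effects of 1.22 (SE 0.11, adjusted p = 5.1e-06) with ATPgs and 0.10 (95% interval -0.14 to 0.35, adjusted p = 0.51) with adenosine. Its difference was 1.11 (SE 0.15, adjusted p = 0.0008), 1.25 without WTATPgs replicate 3 and 0.78 with it alone. Klf11, a Krüppel-like factor (1.36 with ATPgs and 0.18 with adenosine), C9orf72, a regulator of endosomes and autophagy (1.18 with ATPgs and -0.032 with adenosine), and Src, the tyrosine kinase (1.17 with ATPgs and -0.069 with adenosine), followed. Gzmg (1.18 with ATPgs and 0.076 with adenosine) belongs to a cluster of near-identical granzyme genes, so its reads may be shared with Gzmc, Gzmd, Gzme and Gzmf and its value is uncertain. Its difference was 1.31 without WTATPgs replicate 3 (adjusted p = 3.1e-42) and 0.55 with it alone (1.8e-19). Arhgef10 overlaps the antisense gene Gm16350.

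Of the genes that fell with ATPgs only, 258 met the rule, and Neto2, an auxiliary subunit of kainate receptors, had the smallest p among the leading 6. It had 68.7, 71.7 and 69.8 CPM in WT and 34.2, 34.8 and 32.5 CPM in WTATPgs. In set 2, Neto2 had 41.5, 38.6 and 42.3 CPM in DNT and 45.2, 42.4 and 42.5 CPM in ADO. The WTATPgs libraries were all below every WT library, the ADO libraries lay just above DNT, and the effects were -1.05 (SE 0.051, adjusted p = 6.7e-11) and 0.089 (95% interval -0.019 to 0.20, adjusted p = 0.19). Rapgef5, an exchange factor for Rap GTPases (-1.07 with ATPgs and -0.16 with adenosine), Tnip3, an inhibitor of NF-kB signalling (-1.06 with ATPgs and -0.19 with adenosine), and Hsh2d, an adaptor of activated T cells (-0.91 with ATPgs and 0.18 with adenosine), fell in the same way. Gnb5, a G protein beta subunit (-0.99 with ATPgs and -0.024 with adenosine), and Cetn4, a centrin (-0.93 with ATPgs and -0.11 with adenosine), overlap the antisense genes Gm19531 and Bbs12.

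Among genes that fell with adenosine only, 134 met the rule. Il23a (ENSMUSG00000025383, chr10:128296139-128298752), the p19 subunit of interleukin 23, had 49.4, 47.3 and 47.8 CPM in WT and 48.5, 44.7 and 33.8 CPM in WTATPgs. In set 2, Il23a had 75.7, 78.1 and 74.1 CPM in DNT and 26.3, 27.5 and 28.1 CPM in ADO. All ADO libraries were below all DNT libraries, whereas in set 1 WTATPgs replicates 2 and 3 were below WT and replicate 1 lay within it. The effects were -0.19 (95% interval -0.40 to 0.023, adjusted p = 0.14) with ATPgs and -1.48 (SE 0.099, adjusted p = 1.3e-07) with adenosine. Batf3, an AP-1 family factor needed for cross-presenting dendritic cells, had 36.3, 37.2 and 36.96 CPM in WT and 30.5, 29.03 and 38.1 CPM in WTATPgs. In set 2, Batf3 had 40.95, 38.9 and 38.3 CPM in DNT and 12.8, 14.6 and 15.9 CPM in ADO, with effects of -0.18 (95% interval -0.37 to 0.010, adjusted p = 0.12) and -1.45 (SE 0.094, adjusted p = 9e-09). Here WTATPgs replicate 3 was above WT and replicates 1 and 2 below it. Sema6d, a semaphorin, had 165, 167 and 169 CPM in WT and 175, 174 and 155 CPM in WTATPgs. In set 2, Sema6d had 208, 212 and 220.2 CPM in DNT and 104, 105 and 112 CPM in ADO, and its difference of 1.002 (SE 0.065, adjusted p = 4.8e-08) had the smallest p of the leading 6. Gcnt4, a glycosyltransferase (-0.074 with ATPgs and -1.35 with adenosine), Gdpd5, a phosphodiesterase (-0.033 with ATPgs and -1.07 with adenosine), and Cass4, a scaffold of the CAS family (-0.21 with ATPgs and -1.02 with adenosine), were the others. Single treated libraries moved unlike each other in Gdpd5, where the ATPgs effect was -0.25 without WTATPgs replicate 3 and 0.31 with it alone.

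Interferon-stimulated genes included many that rose with adenosine and not with ATPgs. They are switched on by STAT and IRF factors after interferon binds its receptor, and they encode proteins that block viral replication or, for the GBP and IRG GTPases, attack vacuoles that hold microbes. Of 41 antiviral members tested, 28 rose and 1 fell with adenosine, whereas 6 rose and 10 fell with ATPgs. Without WTATPgs replicate 3, 6 rose and 18 fell with ATPgs, and with replicate 3 as the only WTATPgs library 18 rose and 8 fell. The difference was lower with ATPgs for 22 of the 41 and higher for 0, against 9.12% and 8.13% of all genes. It was lower for 37 and higher for 0 without WTATPgs replicate 3, and lower for 22 and higher for 2 with it alone. By class, 12 responded to adenosine only, 5 to ATPgs only and 3 in opposite directions. The median effects over the 41 were -0.021 with ATPgs, 0.47 with adenosine and -0.57 for the difference, beside 0.0090, 0.0040 and -0.011 over all genes.

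Among genes that rose with adenosine only, 189 met the rule, and Gbp2 and Ddx60 were 2 of the 6 that led. The others were Calhm6, a calcium homeostasis modulator (0.19 with ATPgs and 1.15 with adenosine), Atp6v1g2, a proton pump subunit (-0.21 with ATPgs and 1.26 with adenosine), Fbxo48, an F-box protein (0.16 with ATPgs and 1.05 with adenosine), and Eme1, a DNA repair nuclease subunit (-0.21 with ATPgs and 0.998 with adenosine). Atp6v1g2 overlaps Nfkbil1, and Eme1 overlaps Lrrc59 and Mrpl27, on the other strand. Gbp2 (a guanylate-binding protein, ENSMUSG00000028270, chr3:142620602-142638008) had 365, 396 and 391 CPM in WT and 312, 305 and 409 CPM in WTATPgs. In set 2, Gbp2 had 70.7, 70.01 and 77.1 CPM in DNT and 184, 174 and 185 CPM in ADO. The ADO libraries were all above the DNT libraries, whereas WTATPgs replicates 1 and 2 were below WT and replicate 3 above it, and the effects were -0.17 (95% interval -0.39 to 0.061, adjusted p = 0.22) and 1.32 (SE 0.11, adjusted p = 9.4e-06). The untreated sets differed for this gene, with a log2 ratio of DNT over WT of -2.40, so the adenosine effect starts from a lower level. Ddx60, a helicase that aids the sensing of viral RNA, started from nearly equal levels, with 9.06, 9.17 and 10.4 CPM in WT and 7.72, 8.47 and 10.3 CPM in WTATPgs. In set 2, Ddx60 had 10.1, 10.1 and 9.86 CPM in DNT and 24.3, 19.8 and 21.7 CPM in ADO. Its ADO libraries were all above DNT, its WTATPgs libraries overlapped WT, and the effects were -0.11 (95% interval -0.35 to 0.13, adjusted p = 0.46) and 1.13 (SE 0.11, adjusted p = 4.3e-07). Ifit2, which binds viral RNA and restrains its translation, moved in opposite directions, with 11.3, 10.5 and 9.94 CPM in WT and 8.36, 7.95 and 7.45 CPM in WTATPgs. In set 2, Ifit2 had 14.7, 14.6 and 13.6 CPM in DNT and 30.2, 29.8 and 30.1 CPM in ADO. Neither set overlapped, and the difference was -1.49 (SE 0.11, adjusted p = 1.8e-07), -1.45 without WTATPgs replicate 3 and -1.58 with it alone.

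Of the other antiviral members, Oas1a, an oligoadenylate synthetase with near-identical neighbours and so uncertain (-0.34 with ATPgs and 0.50 with adenosine), and Oasl1 (-0.44 with ATPgs and 0.35 with adenosine) also moved in opposite directions. Rsad2 (viperin, 0.014 with ATPgs and 0.81 with adenosine), Irf7, a master factor of the interferon response (-0.12 with ATPgs and 0.89 with adenosine), Cmpk2 (-0.11 with ATPgs and 0.80 with adenosine) and Zbp1, a sensor of nucleic acid in the Z form (0.11 with ATPgs and 0.92 with adenosine), rose with adenosine only. In contrast, Mx1, a GTPase that blocks influenza virus (-0.72 with ATPgs and 0.11 with adenosine), Ifih1, the RNA sensor MDA5 (-0.47 with ATPgs and 0.072 with adenosine), and Eif2ak2, the kinase PKR (-0.42 with ATPgs and 0.0039 with adenosine), fell with ATPgs only. Mx1 had a higher untreated level in set 2, with a log2 ratio of DNT over WT of 2.31. The difference was not called for Irf1, which rose by 0.49 and 0.47 with a difference of 0.018 (95% interval -0.13 to 0.17, adjusted p = 0.9).

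In the 12 libraries the GBP and IRG GTPases that were called rose with either ligand, and those that differed rose more with adenosine. Of 19 tested, 9 rose with ATPgs and 14 with adenosine and 0 fell with either, and the difference was lower with ATPgs for 7 and higher for 0. Without WTATPgs replicate 3 it was lower for 17 and higher for 0, and with replicate 3 as the only WTATPgs library it was lower for 8 and higher for 6. The median difference was -0.58 and -0.16 under these choices. In all 12 libraries the median effects were 0.49 with ATPgs, 0.94 with adenosine and -0.42 for the difference. Without WTATPgs replicate 3, 12 of the 19 rose and 3 fell with ATPgs. The median ATPgs effect was then 0.25, and 0.785 with replicate 3 as the only WTATPgs library. Tgtp1 (0.39 with ATPgs and 1.07 with adenosine) and Gbp3 (0.53 with ATPgs and 0.93 with adenosine) rose with both and more with adenosine, and Ifi47 (0.17 with ATPgs and 0.86 with adenosine) with adenosine only. Several of these genes have near-identical neighbours (Tgtp1 and Tgtp2, and members of the Gbp cluster), so their single values are uncertain. Tgtp1 also overlaps Gm12185.

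**Figure D4:**
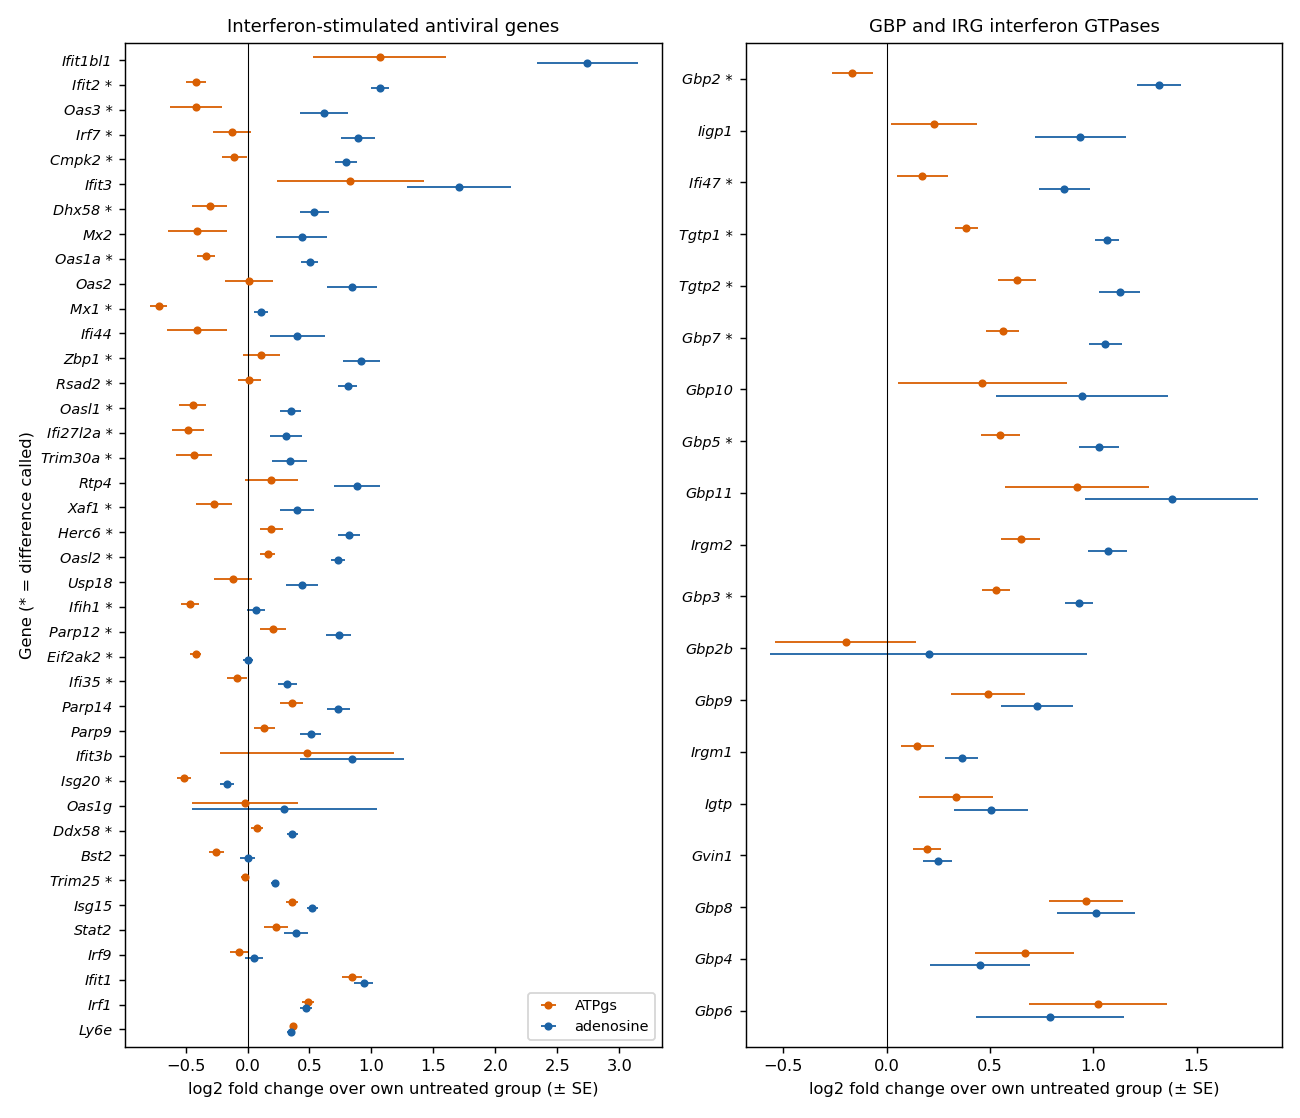
Effect of ATPgs (orange) and adenosine (blue) on tested antiviral interferon-stimulated genes (left, 40 of the 41) and GBP or IRG GTPase (right, 19 genes), as log2 fold change over the untreated group of the same set with its SE; an asterisk marks an adjusted p of the difference under 0.05. In the left panel the asterisked genes (22) all have the blue point to the right of the orange one; in the right panel 7 genes do.

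Since members of this group moved together, their promoters were searched for the interferon-stimulated response element, written as GAAA, any 2 bases and GAAA on either strand, in the 250 bases before each start site (RefSeq, GRCm38.p6, 13564 promoters of 10688 of the 15788 genes). It was found in 2.82% of all these promoters, in 6.53% of those of genes up with adenosine only, in 5.71% for genes down with ATPgs and up with adenosine, and in 0.840% for genes up with ATPgs only. For genes down with adenosine only the share was 3.55%, for genes down with ATPgs only 2.65%, and for genes up with ATPgs and down with adenosine 1.43%. In the antiviral list 36.1% of 36 promoters held it and in the GBP and IRG list 83.3% of 12. Cytosolic ribosomal protein genes (16.7% of 36) and cytotoxic effector genes (16.0% of 25) also passed the share over all promoters. A match is a description of the letters and not of a factor bound there. The promoters of Gbp2 (chr3:142620413-142620662, plus strand), Ddx60 (chr8:61927837-61928086, plus strand), Oas1a (chr5:120907526-120907775, minus strand) and Rsad2 (chr12:26456453-26456702, minus strand) are shown because these genes carry the pattern in its adenosine-only and opposite forms. They read 5′ to 3′ on the strand of the gene, and capitals mark the matches.
Gbp2: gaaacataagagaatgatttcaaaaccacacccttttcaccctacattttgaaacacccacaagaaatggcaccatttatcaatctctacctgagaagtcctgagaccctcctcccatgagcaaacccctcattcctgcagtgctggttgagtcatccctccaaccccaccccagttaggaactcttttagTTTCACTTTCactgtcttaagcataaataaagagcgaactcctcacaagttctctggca
Ddx60: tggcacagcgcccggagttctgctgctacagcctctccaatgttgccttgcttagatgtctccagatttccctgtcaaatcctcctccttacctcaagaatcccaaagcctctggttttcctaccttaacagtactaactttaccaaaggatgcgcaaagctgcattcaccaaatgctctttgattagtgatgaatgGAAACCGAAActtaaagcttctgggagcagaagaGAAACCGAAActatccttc
Oas1a: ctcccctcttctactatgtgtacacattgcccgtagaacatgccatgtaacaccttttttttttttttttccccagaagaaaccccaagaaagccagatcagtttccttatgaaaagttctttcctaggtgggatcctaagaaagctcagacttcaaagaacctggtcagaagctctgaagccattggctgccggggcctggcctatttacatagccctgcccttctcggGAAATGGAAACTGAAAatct
Rsad2: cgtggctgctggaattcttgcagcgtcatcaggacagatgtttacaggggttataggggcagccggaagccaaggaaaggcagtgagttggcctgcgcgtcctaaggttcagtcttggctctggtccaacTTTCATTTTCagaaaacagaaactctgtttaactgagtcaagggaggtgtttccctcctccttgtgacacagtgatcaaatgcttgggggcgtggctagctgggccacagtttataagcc
The first base of the match lay 59 bases before the RefSeq start in Gbp2, 120 bases in Rsad2, 53 and 19 bases in Ddx60, and 20 and 14 bases in Oas1a, where the matches overlap. In Gbp2 the RefSeq start differs from the gene start given above. Its window ends at 142620662, past that gene start of 142620602, so its match lies within the gene span given above. Ifit2, Irf7 and Ifi47 held no match in this window, which says only that these letters are not in it.

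Targets of cyclic AMP and its factor CREB leaned the other way. Of 30 tested, 21 rose and 1 fell with ATPgs, 11 rose and 5 fell with adenosine, and the difference was higher with ATPgs for 15 and lower for 1. The counts were 23 and 2 without WTATPgs replicate 3 and 17 and 4 with it alone, and the median effects were 0.54 with ATPgs, 0.14 with adenosine and 0.31 for the difference. Crem, which encodes a CREB family repressor, rose with both ligands, by 1.54 ± 0.035 (SE) with ATPgs and 1.24 ± 0.035 with adenosine, and the difference was 0.30 (SE 0.049, adjusted p = 0.0006). The phosphodiesterases Pde4b (1.24 with ATPgs and 0.93 with adenosine) and Pde4d (1.86 with ATPgs and 1.37 with adenosine), which degrade cyclic AMP, and Rgs2 (1.89 with ATPgs and 1.63 with adenosine), a brake on G protein signalling, did the same. Dusp1, a MAP kinase phosphatase (1.89 with ATPgs and 0.57 with adenosine), and Sik1, a kinase that restrains CREB coactivators (0.80 with ATPgs and 0.32 with adenosine), rose more with ATPgs. Crem overlaps the antisense gene Gm6225.

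Other members of the list responded to ATPgs only or in opposite directions. Nfil3, a basic leucine zipper factor (0.58 with ATPgs and -0.067 with adenosine), Nr4a2, an orphan nuclear receptor (0.86 with ATPgs and -0.21 with adenosine), Per1, a clock gene (0.55 with ATPgs and 0.015 with adenosine), and Ppp1r15a, a phosphatase subunit that restores translation after stress (0.71 with ATPgs and 0.030 with adenosine), rose with ATPgs only. Gem, a small GTPase, fell with adenosine only (-0.042 with ATPgs and -0.55 with adenosine), and Rgs16, which overlaps the antisense gene Gm28513, fell with both and more with ATPgs (-0.996 with ATPgs and -0.33 with adenosine). Nr4a1, an early gene of T cell receptor signalling, had no called difference, at 0.047 (95% interval -0.29 to 0.39, adjusted p = 0.88), but with WTATPgs replicate 3 alone it was -0.29 (adjusted p = 1e-10). The cyclic AMP response element, TGACGTCA on either strand, stood in 2.52% of all promoters, 4.20% for genes up and 3.46% for genes down with ATPgs only, and 2.51% for genes up and 2.84% for genes down with adenosine only. In this list 3 of 34 promoters held it (8.82%), a share that nuclear oxidative phosphorylation (9.52%), cytosolic ribosomal protein (8.33%) and cytotoxic effector genes (2 of 25) came near or passed. Ppp1r15a is shown as the ATPgs-only member that holds it (chr7:45526269-45526518, minus strand), with the match in capitals 12 bases before the start.
Ppp1r15a: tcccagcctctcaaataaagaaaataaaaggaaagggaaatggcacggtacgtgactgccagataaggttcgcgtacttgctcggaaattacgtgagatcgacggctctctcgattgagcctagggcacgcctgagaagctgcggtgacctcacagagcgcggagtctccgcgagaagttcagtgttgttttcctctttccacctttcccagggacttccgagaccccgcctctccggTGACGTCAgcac

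AP-1 factors, dimers of Fos, Jun, Maf, Batf and Atf proteins that act with NFAT in activated T cells, shifted in the same direction as the cyclic AMP targets. Of 16 tested, 8 had a higher effect of ATPgs and 1 a lower, 11 and 1 without WTATPgs replicate 3 and 10 and 1 with it alone, and the medians were 0.37 with ATPgs, -0.20 with adenosine and 0.52 for the difference. Fos had 20.9, 23.05 and 20.4 CPM in WT and 110.0, 117 and 62.5 CPM in WTATPgs. In set 2, Fos had 8.04, 9.65 and 8.52 CPM in DNT and 15.8, 17.8 and 17.9 CPM in ADO. All treated libraries were above their untreated groups, WTATPgs replicate 3 was the lowest of its group, and the difference of 1.20 (SE 0.33, adjusted p = 0.04) was lost without any 1 of the libraries except WTATPgs replicate 3. It was 1.43 without WTATPgs replicate 3 (adjusted p = 6.5e-19) and 0.56 with it alone (0.00016). Atf3, a stress-induced factor, had 162, 159.8 and 159.7 CPM in WT and 219, 225 and 179 CPM in WTATPgs. In set 2, Atf3 had 103, 105 and 105 CPM in DNT and 68.2, 67.7 and 67.05 CPM in ADO, so that it lay above WT in set 1 and below DNT in set 2. Its effects were 0.37 (SE 0.061, adjusted p = 0.0002) and -0.62 (SE 0.064, adjusted p = 3.3e-06). Junb (0.37 with ATPgs and -0.24 with adenosine) and Maff (0.97 with ATPgs and -0.32 with adenosine) also moved in opposite directions. Fosl2 rose with both and more with ATPgs (1.14 with ATPgs and 0.47 with adenosine), and Batf fell with ATPgs only (-0.24 with ATPgs and 0.030 with adenosine). The AP-1 site, TGA, any base and TCA, stood in 4.70% of all promoters. For genes up with ATPgs and down with adenosine its share was 2.14% (3 of 140), and for the reverse 10.5% (11 of 105). Another pattern searched, the gamma-activated site (TTC, any 3 bases and GAA), stood in 6.03% of all promoters and in 5.71% to 7.98% over the classes.

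Of 30 listed cytokine genes tested, 12 fell and 3 rose with ATPgs and 12 fell and 1 rose with adenosine, and 0 were in a class of a single ligand or of opposite directions. Without WTATPgs replicate 3, 2 of the 30 responded to ATPgs only, 3 to adenosine only and 2 in opposite directions. The difference was called for 6 of the 30, 3 in each direction, beside 17.3% of all genes called in either direction. Without WTATPgs replicate 3 it was higher for 14 and lower for 9, beside 14.2% and 18.8% of all genes. Il2, the growth factor of T cells, fell by 2.72 with ATPgs and 2.87 with adenosine, and the difference was 0.15 (95% interval -0.0079 to 0.31, adjusted p = 0.19). Ifng, interferon gamma, fell by 1.33 and 1.32. Its difference was -0.0097 (95% interval -0.40 to 0.38, adjusted p = 0.98) and 0.30 with WTATPgs replicate 3 alone (adjusted p = 0.00016), and it overlaps Gm49751. Il10, an anti-inflammatory cytokine, had 8.01, 8.63 and 8.15 CPM in WT and 3.90, 4.79 and 3.37 CPM in WTATPgs. In set 2, Il10 had 30.6, 29.3 and 29.7 CPM in DNT and 7.62, 5.98 and 7.82 CPM in ADO. Every treated library was below its untreated group and the fall was larger with adenosine, with effects of -1.04 with ATPgs and -2.06 with adenosine and a difference of 1.02 (SE 0.17, adjusted p = 0.00059).

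Tnf likewise fell more with adenosine (-0.74 with ATPgs and -1.12 with adenosine, adjusted p of the difference 5.4e-05), as did Spp1, osteopontin (-0.55 with ATPgs and -0.95 with adenosine). The reverse held for Tnfsf8, the ligand of CD30 (-1.31 with ATPgs and -0.74 with adenosine), Tnfsf14, known as LIGHT (-0.92 with ATPgs and -0.52 with adenosine), and Lif (-1.05 with ATPgs and -0.42 with adenosine), which fell more with ATPgs. Of 28 chemokine and chemokine receptor genes, the difference was higher with ATPgs for 1 and lower for 4, beside 17.3% of all genes called in either direction. It was higher for 8 and lower for 9 without WTATPgs replicate 3, and higher for 4 and lower for 10 with it alone. The gene that was higher in the 12 libraries was Ccr4, a receptor of T cells that home to skin and lung, which rose with ATPgs only (1.02 with ATPgs and 0.11 with adenosine). Xcl1 (-1.91 with ATPgs and -0.79 with adenosine), Ccl4 (-1.44 with ATPgs and -1.06 with adenosine) and Ccl5 (-0.60 with ATPgs and -0.35 with adenosine), chemokines of activated killer cells, fell with both and more with ATPgs, and the call for Ccl5 was lost without ADO replicate 1, WT replicate 1 or WTATPgs replicate 2, with all 18 libraries and against a log2 change of 0.5.

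Of 26 cytotoxic effector genes, the difference was lower with ATPgs for 10 and higher for 4, and for 15 and 7 without WTATPgs replicate 3 and 13 and 8 with it alone. Over all genes it was lower for 9.12% and higher for 8.13%, and for 18.8% and 14.2% without WTATPgs replicate 3. Gzmb, granzyme B, which averaged 14171 CPM in WT and 21773 CPM in DNT, fell by 0.33 with ATPgs and 0.19 with adenosine, a difference of -0.15 (SE 0.036, adjusted p = 0.01). Prf1, perforin, had effects of -0.29 with ATPgs and -0.46 with adenosine and a difference of 0.17 (95% interval 0.032 to 0.32, adjusted p = 0.089), which passed with WTATPgs replicate 3 alone (0.32, adjusted p = 1.6e-15). Fasl, the ligand of the death receptor Fas, fell with ATPgs only, by 0.23, and its adenosine effect was 0.036 (95% interval -0.062 to 0.13, adjusted p = 0.59). Crtam, an adhesion receptor of killer cells (-1.69 with ATPgs and -0.87 with adenosine), Ctsw, cathepsin W (-0.55 with ATPgs and -0.14 with adenosine), Nkg7 (-0.48 with ATPgs and -0.15 with adenosine) and the serpin Serpinb6b (-0.66 with ATPgs and -0.22 with adenosine) fell with both and more with ATPgs, and Serpinb9, which protects killer cells from granzyme B, with ATPgs only (-0.25 with ATPgs and 0.048 with adenosine). The 4 that were higher with ATPgs, Gzmc, Gzmd, Gzme and Gzmf, are near-identical neighbours of 1 cluster and are uncertain one by one. Ctsw overlaps the antisense gene Fibp.

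Cytokine receptors and their feedback inhibitors held 3 opposite genes. Il4ra (ENSMUSG00000030748, chr7:125552120-125579474), the alpha chain of the receptors for interleukins 4 and 13, had 260.0, 267 and 261 CPM in WT and 363, 366 and 395 CPM in WTATPgs. In set 2, Il4ra had 327, 323 and 317 CPM in DNT and 252, 261 and 264 CPM in ADO. No library of one group reached the range of the other in either set, and the difference was 0.83 (SE 0.049, adjusted p = 2.9e-08), 0.79 without WTATPgs replicate 3 and 0.90 with it alone. Socs2, a suppressor of cytokine signalling, had effects of 0.68 with ATPgs and -0.19 with adenosine and a difference of 0.87 (SE 0.089, adjusted p = 6.3e-06). Il21r had 0.22 with ATPgs and -0.24 with adenosine. Over the 28 tested interleukin receptor and IL-2 target genes, 11 had a higher and 7 a lower effect of ATPgs, 13 and 11 without WTATPgs replicate 3 and 11 and 8 with it alone. Ifngr1 (2.02 with ATPgs and 1.53 with adenosine), Ifngr2 (0.96 with ATPgs and 0.45 with adenosine) and Socs3 (1.28 with ATPgs and 0.60 with adenosine) rose with both and more with ATPgs, whereas Il2rg, the common gamma chain (-0.30 with ATPgs and 0.098 with adenosine), fell with ATPgs only and Bcl6, the transcriptional repressor of follicular helper T cells (0.14 with ATPgs and 0.65 with adenosine), rose with adenosine only. Stat5a, the transducer of IL-2 signals, fell with both and more with ATPgs (-0.92 with ATPgs and -0.49 with adenosine), and it overlaps Stat3 on the other strand.

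In the list of coinhibitory receptors and Ikaros factors, which holds receptors that restrain T cells, their ligands and genes of regulatory T cells such as Foxp3, the effect was lower with ATPgs for 8 and higher for 5 of 27 tested, with 8 and 7 without WTATPgs replicate 3 and 14 and 4 with it alone. Lag3, a receptor for MHC class II, had 130.2, 136 and 139 CPM in WT and 70.5, 73.6 and 74.4 CPM in WTATPgs. In set 2, Lag3 had 103, 95.9 and 97.4 CPM in DNT and 112, 115 and 113 CPM in ADO. Cd160, a receptor for the herpesvirus entry mediator, had 417, 410.0 and 406 CPM in WT and 227, 235 and 209 CPM in WTATPgs. In set 2, Cd160 had 146, 151 and 148 CPM in DNT and 162, 166 and 162 CPM in ADO. In both genes the WTATPgs libraries were far below WT and the ADO libraries slightly above DNT, with effects of -0.89 with ATPgs and 0.20 with adenosine for Lag3 and -0.88 with ATPgs and 0.14 with adenosine for Cd160. The difference was -1.09 (SE 0.056, adjusted p = 8.7e-09) for Lag3 and -1.02 (SE 0.054, adjusted p = 8.7e-09) for Cd160. Tigit (-0.0031 with ATPgs and 0.71 with adenosine) and Pdcd1, which encodes PD-1 (0.10 with ATPgs and 0.68 with adenosine), rose with adenosine only. Cd274, the ligand of PD-1 (0.14 with ATPgs and -0.24 with adenosine), and the Ikaros factor Ikzf4 (0.37 with ATPgs and -0.39 with adenosine) went the other way, up with ATPgs and down with adenosine. Cd160 overlaps Pdzk1 on the other strand.

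Of 29 activation and costimulation genes, 10 had a higher and 6 a lower effect of ATPgs, 12 and 9 without WTATPgs replicate 3 and 13 and 11 with it alone. Prdm1, the effector factor Blimp-1 (0.62 with ATPgs and -0.55 with adenosine), moved in opposite directions, Cd80, a ligand of CD28 (0.86 with ATPgs and 0.055 with adenosine), rose with ATPgs only, Cd28 itself (-0.017 with ATPgs and 0.46 with adenosine) rose with adenosine only, and Cd27 (-0.91 with ATPgs and 0.23 with adenosine) fell with ATPgs only. Among 24 genes of quiescence and homing, 19 rose with ATPgs and 15 with adenosine, and the difference was higher with ATPgs for 10 and lower for 3. These counts were 10 and 5 without WTATPgs replicate 3 and 13 and 2 with it alone. Klf6, a Krüppel-like factor, had 282, 275 and 271 CPM in WT and 462, 455 and 373 CPM in WTATPgs. In set 2, Klf6 had 153, 156 and 159.8 CPM in DNT and 119.7, 119 and 122 CPM in ADO. It was above WT in every WTATPgs library and below DNT in every ADO library, and the difference was 1.02 (SE 0.090, adjusted p = 9.2e-06). Klf3 (0.42 with ATPgs and -0.59 with adenosine) moved likewise. Klf2, the factor that maintains homing receptors, rose by 2.35 with ATPgs and was in the class of ATPgs only. Its adenosine effect of 0.54 was not called, which at this size does not show that a response was absent. Tcf7 (TCF1), a factor of stem-like T cells, rose with adenosine only (-0.16 with ATPgs and 0.95 with adenosine), and Bach2 fell with ATPgs and rose with adenosine (-0.49 with ATPgs and 0.31 with adenosine), although it overlaps its antisense transcript Bach2os.

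Within T cell receptor signalling, 5 of 31 genes had a higher and 4 a lower effect of ATPgs, beside 17.3% of all genes called in either direction. The counts were 11 and 12 without WTATPgs replicate 3 and 10 and 8 with it alone. Dgka, a diacylglycerol kinase that dampens signalling downstream of the receptor, rose by 0.88 with adenosine and fell by 0.16 with ATPgs, with a difference of -1.04 (SE 0.075, adjusted p = 1.6e-07), and Rasgrp1, which diacylglycerol activates, did the reverse (0.23 with ATPgs and -0.25 with adenosine). Dgka overlaps Pmel on the other strand. Fyn, a Src family kinase, fell with both and more with ATPgs (-0.62 with ATPgs and -0.31 with adenosine). Of 23 genes of MAP kinase and G protein feedback, 7 were higher and 4 lower with ATPgs, 8 and 6 without WTATPgs replicate 3 and 6 and 7 with it alone. Among them were Dusp6, which fell more with ATPgs (-0.59 with ATPgs and -0.098 with adenosine), and Rgs1 (0.52 with ATPgs and 0.21 with adenosine). In the NF-kB list 8 were higher and 6 lower of 27, 11 and 6 without WTATPgs replicate 3 and 10 and 10 with it alone, with Birc2 up with both and more with ATPgs (0.98 with ATPgs and 0.23 with adenosine), the feedback regulator Tnip1 up with ATPgs only (0.35 with ATPgs and 0.032 with adenosine), Bcl3, a nuclear IkB protein, in opposite directions (0.35 with ATPgs and -0.30 with adenosine) and Rela, the p65 subunit, in the reverse (-0.12 with ATPgs and 0.14 with adenosine).

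Cell death genes were mixed, with 7 higher and 8 lower with ATPgs of 31 tested, 9 and 10 without WTATPgs replicate 3 and 8 and 8 with it alone. Cdkn1a, the cell cycle inhibitor p21 (0.24 with ATPgs and -0.15 with adenosine), and Mdm2, which degrades p53 (0.24 with ATPgs and -0.091 with adenosine), rose with ATPgs and fell with adenosine. Gsdmd, the pore former of pyroptosis (-0.35 with ATPgs and 0.16 with adenosine), and Mlkl, that of necroptosis (-0.26 with ATPgs and 0.22 with adenosine), did the reverse. Fas (-0.55 with ATPgs and 0.12 with adenosine) fell with ATPgs only, and Gadd45g fell with both and more with adenosine (-0.55 with ATPgs and -1.43 with adenosine). Bcl2a1d (-0.32 with ATPgs and 0.10 with adenosine) has near-identical copies and is uncertain. Of 42 cell cycle and replication genes, 30 rose with adenosine and 15 with ATPgs, and the difference was lower with ATPgs for 14 and higher for 0, 29 and 1 without WTATPgs replicate 3 and 7 and 4 with it alone. Cenpa, a centromere histone (0.50 with ATPgs and 1.04 with adenosine), rose with both, Bub1b, a spindle checkpoint kinase (-0.073 with ATPgs and 0.31 with adenosine), rose with adenosine only, and Cdc20 (-0.22 with ATPgs and 0.27 with adenosine), which overlaps Elovl1, moved in opposite directions.

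Messages encoded in the mitochondrial genome that were called rose with ATPgs or fell with adenosine. Of 12 tested, 8 rose with ATPgs and 0 fell, 5 fell with adenosine and 0 rose, and the difference was higher with ATPgs for 8 and lower for 0, 9 and 0 without WTATPgs replicate 3 and 7 and 0 with it alone. mt-Cytb, cytochrome b of complex III, had 2557, 2595 and 2563 CPM in WT and 3277, 3302 and 3094 CPM in WTATPgs. In set 2, mt-Cytb had 2803, 2905 and 2837 CPM in DNT and 2418, 2330.1 and 2357 CPM in ADO. The groups did not overlap in either set and the difference was 0.59 (SE 0.040, adjusted p = 7e-08). mt-Nd4 (0.37 with ATPgs and -0.23 with adenosine) and mt-Nd5 (0.11 with ATPgs and -0.32 with adenosine), subunits of complex I, moved likewise, though each overlaps a neighbouring mitochondrial gene. Nuclear genes of oxidative phosphorylation did not share this: of 30 tested, 3 were lower with ATPgs and 0 higher, beside 9.12% and 8.13% of all genes. The 3 were Ndufa4 (-0.32 with ATPgs and 0.023 with adenosine), Cycs (-0.30 with ATPgs and -0.045 with adenosine) and Cox6c (-0.15 with ATPgs and 0.087 with adenosine). The difference of Cycs was -0.32 without WTATPgs replicate 3 (adjusted p = 6.1e-10) and -0.15 with it alone (0.011), and that of Cox6c -0.29 without WTATPgs replicate 3 (adjusted p = 2.1e-05) and -0.16 with it alone (0.058). The call for Cox6c was also lost without ADO replicate 3, DNT replicate 1 or 2, WT replicate 1 or 3, or WTATPgs replicate 2. For the list the counts were 12 lower and 0 higher without WTATPgs replicate 3, against 3 lower and 4 higher with it alone. Cytosolic ribosomal protein genes fell with ATPgs by small amounts, 35 of 40, and 2 of 40 with adenosine. Without WTATPgs replicate 3 these numbers were 36 and 16, and with it alone 28 fell with ATPgs. The difference was lower with ATPgs for 16 and higher for 0, of which 15 were in the class of ATPgs only, such as Rpl10a (-0.22 with ATPgs and -0.056 with adenosine), and the median difference was -0.13. It was lower for 31 and higher for 0 without WTATPgs replicate 3, and lower for 12 and higher for 0 with it alone.

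The amino acid response driven by the factor ATF4 parted the ligands as well. Of 34 tested genes, 26 fell and 2 rose with adenosine, 14 fell and 11 rose with ATPgs, and the difference was higher with ATPgs for 17 and lower for 2. These counts were 17 and 4 without WTATPgs replicate 3 and 21 and 3 with it alone. Slc3a2, the heavy chain shared by amino acid exchangers (CD98), had 651, 639 and 624 CPM in WT and 739.7, 751 and 721 CPM in WTATPgs. In set 2, Slc3a2 had 502, 502 and 495 CPM in DNT and 424, 431 and 423 CPM in ADO. It was above WT with ATPgs and below DNT with adenosine in every library, with a difference of 0.44 (SE 0.039, adjusted p = 1.4e-06). Atf4 itself (0.090 with ATPgs and -0.24 with adenosine), Atf5 (0.23 with ATPgs and -0.49 with adenosine), Trib3 (0.31 with ATPgs and -0.36 with adenosine), and the transporters Slc7a11 for cystine (1.06 with ATPgs and -0.75 with adenosine) and Slc38a2 for small neutral amino acids (0.44 with ATPgs and -0.13 with adenosine) were opposite too. Asns, asparagine synthetase (-0.046 with ATPgs and -0.27 with adenosine), and Slc1a4 (-0.049 with ATPgs and -0.56 with adenosine) fell with adenosine only, and Slc7a5 fell with both and more with adenosine (-0.24 with ATPgs and -0.53 with adenosine).

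Other metabolic and stress groups depended on the library that stood apart. Their counts in the 12 libraries stand beside 8.13% of all genes higher and 9.12% lower with ATPgs. Of 24 glycolysis and hypoxia genes, 5 were higher and 0 lower with ATPgs, but 6 and 10 without WTATPgs replicate 3 and 22 and 0 with it alone. Vegfa (0.85 with ATPgs and 0.31 with adenosine), Hif1a (0.43 with ATPgs and 0.19 with adenosine, overlapping Gm15283) and Hk2, hexokinase (-0.19 with ATPgs and -0.68 with adenosine), were called in the 12 libraries. Genes of endoplasmic reticulum folding and stress fell with both ligands, 14 of 23 with ATPgs and 19 with adenosine, and the difference was higher for 4 and lower for 0, but 5 and 6 without replicate 3 and 16 and 0 with it alone. Ern1, the stress sensor IRE1, was among the few that rose (0.93 with ATPgs and 0.60 with adenosine). Genes of cholesterol synthesis rose with both, 17 of 25 with ATPgs and 12 with adenosine, and were higher with ATPgs for 6 and lower for 0, against 10 and 0 and then 2 and 3. Mvd (0.72 with ATPgs and 0.16 with adenosine) and Hmgcs1 (0.53 with ATPgs and 0.23 with adenosine) were examples, and the difference of Hmgcs1 was 0.36 without WTATPgs replicate 3 (adjusted p = 8.5e-09) and 0.17 with it alone (0.022). Heat shock genes were higher for 6 and lower for 4 of 23, against 6 and 17 and then 8 and 4. The largest difference of the 23 was 2.13 (SE 0.29, adjusted p = 0.00031) for Hspa1a, an inducible HSP70 gene that is near-identical to Hspa1b, so both are uncertain.

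**Figure D5:**
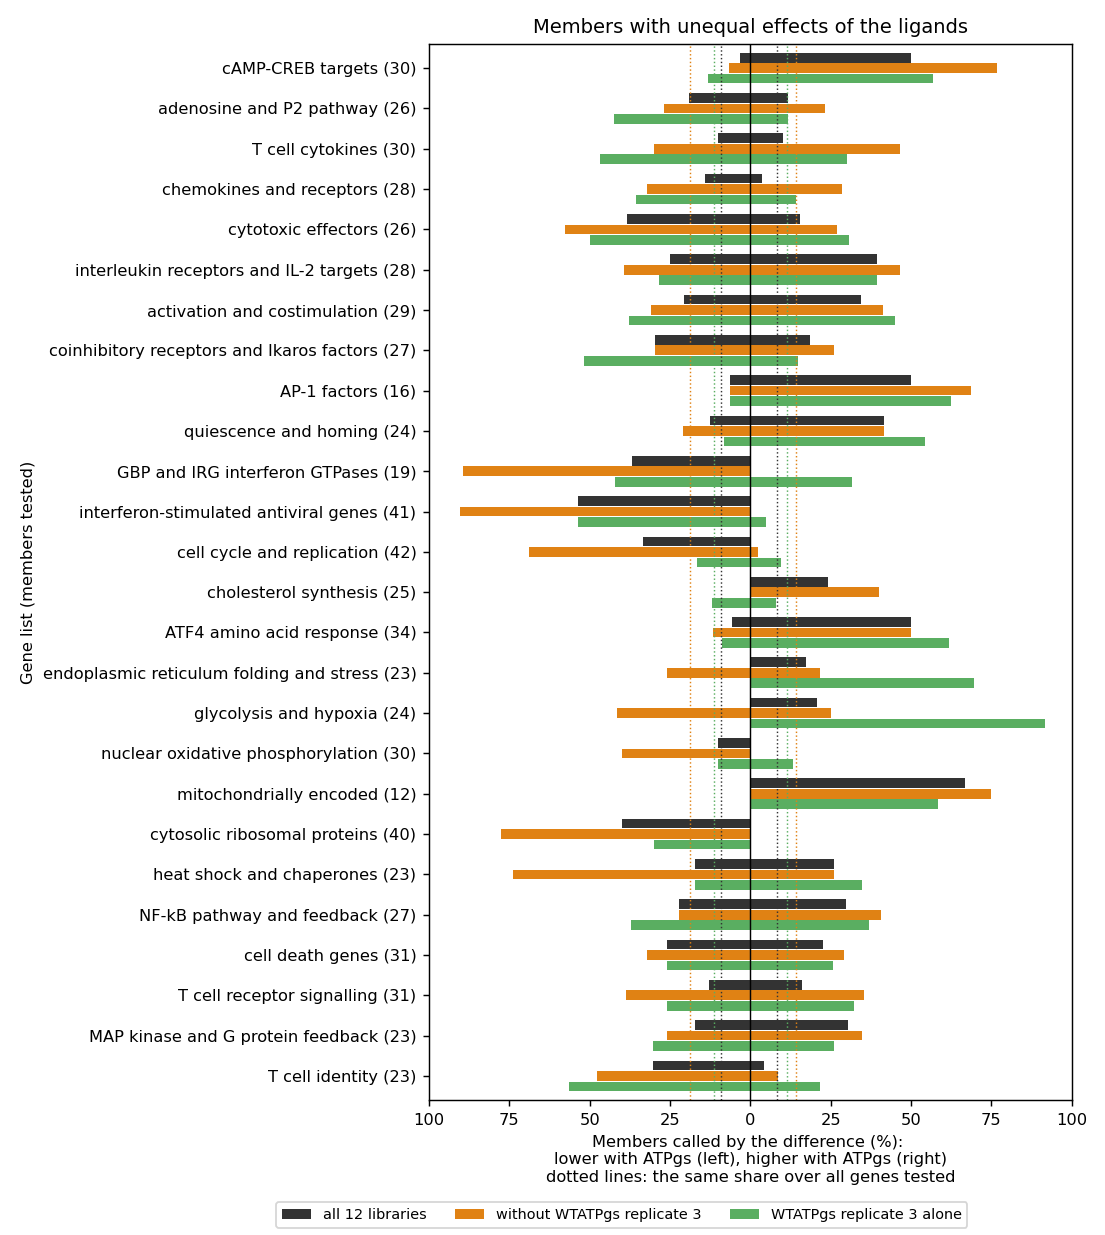
Share of the tested members of each gene list whose effects differed between the ligands (horizontal axis, percent), to the right where the effect of ATPgs was higher and to the left where it was lower; bar colours are the 3 choices of WTATPgs libraries and dotted lines the same share over all genes tested. Antiviral and ribosomal protein genes lie to the left under all 3 choices apart from 2 antiviral genes, cAMP-CREB, AP-1, ATF4 and mitochondrially encoded genes mainly to the right, while glycolysis genes change sides with WTATPgs replicate 3 and GBP and IRG genes lie to the left without it and on both sides with it alone.

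For marker lists of other cells, the counts of called differences in the 12 libraries stand beside 17.3% of all genes. The median difference was 1.235 for macrophage, monocyte and neutrophil, 0.65 for B cell and 0.20 for NK markers, beside -0.011 over all genes. These medians were 1.64, 0.925 and 0.31 without WTATPgs replicate 3 and -0.15, -1.54 and -0.17 with it alone. Of 18 macrophage, monocyte and neutrophil markers, 14 rose with ATPgs and 2 rose and 1 fell with adenosine, and the difference was called for Mpo (1.36 with ATPgs and -0.20 with adenosine) and Fcgr1 (1.10 with ATPgs and -1.19 with adenosine), the latter at no more than 1.07 CPM in any of the 12 libraries. The call for Mpo was lost without any 1 of the libraries except DNT replicate 1 and WTATPgs replicate 3. The difference was 1.86 without WTATPgs replicate 3 (adjusted p = 2.9e-07) and 0.64 with it alone (0.19) for Mpo and 2.44 without WTATPgs replicate 3 (adjusted p = 0.001) and 1.91 with it alone (0.058) for Fcgr1. The count was 11 higher and 0 lower without WTATPgs replicate 3, and 0 and 2 with it alone. Of 18 B cell markers 3 rose with ATPgs and 1 with adenosine, and 0 differed, with 7 higher without replicate 3 and 1 higher and 6 lower with it alone. Among 15 NK and innate lymphoid markers, Kit (0.35 with ATPgs and 0.89 with adenosine) and Klra7 (0.28 with ATPgs and 0.59 with adenosine, a family of near-identical genes) rose with both and less with ATPgs. Fcer1g (0.39 with ATPgs and -0.12 with adenosine) rose with ATPgs only. Klrb1c had an effect of -0.999 with adenosine and was in the class of adenosine only. Its ATPgs effect of 0.67 was not called, which at this size does not show that a response was absent. The difference was -0.42 without WTATPgs replicate 3 (adjusted p = 5.3e-11) and -0.81 with it alone (1.2e-19) for Kit, -0.40 without WTATPgs replicate 3 (adjusted p = 9.3e-10) and -0.17 with it alone (0.021) for Klra7 and 0.64 without WTATPgs replicate 3 (adjusted p = 5.4e-16) and 0.22 with it alone (0.0076) for Fcer1g. The counts for the NK list were 2 higher and 2 lower, 7 and 3 without WTATPgs replicate 3 and 3 and 5 with it alone. T cell identity genes were higher for 1 and lower for 7 of 23, 2 and 11 without WTATPgs replicate 3 and 5 and 13 with it alone. Among those lower in the 12 libraries were Cd2, an adhesion receptor (-0.14 with ATPgs and 0.63 with adenosine), and Trbc2, a constant segment of the T cell receptor beta chain (-0.17 with ATPgs and 0.15 with adenosine).

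The libraries with the A2a receptor inhibitor, which the classes did not use, gave a further view of the adenosine effect. Over 12598 genes, all 3 RA libraries lay above all 3 R libraries for 10.2% and below them for 10.7%. For genes up with adenosine only the shares were 19.4% above and 8.33% below, and for genes down with adenosine only 9.78% and 14.9%. Genes up with ATPgs and down with adenosine had 14 of 140 above and 35 of 140 below, and genes down with ATPgs and up with adenosine 14.7% and 14.7%. Of the leading genes of the opposite and adenosine-only classes, Il23a, Batf3, Sema6d, Zfp608, Ndrg4, Gdpd5 and Cass4, all down with adenosine, lay below R in every RA library. Art2b, Itgax, Fbxo48 and Eme1, up with adenosine, were above. Ddx60 and Slfn1, up with adenosine, lay below. Stom, down with adenosine, lay above by a narrow margin, with 37.07 CPM in the lowest RA and 37.03 CPM in the highest R library. The R libraries of Stom reached down to 21.3 CPM, so R replicates could lie far apart. Levels in this set were low for Ddx60, Fbxo48 and Art2b, at most 2.46, 1.64 and 3.93 CPM in any library. Gbp2, Cxcr3, Slamf6, Fam20a, Sema4a, Tanc2, Atp6v1g2, Calhm6 and Gcnt4 overlapped, and Axin2 was not among the 12598 genes. Other genes described above that kept the direction of their adenosine effect included Il4ra, Klf6, Atf3, Il2, Il10, Tnf and Gem (down) and Tigit, Cenpa and Bub1b (up). Those that went the other way included Oas1a, Adora2a and Mvd (up with adenosine) and Entpd1 and Socs2 (down), while Ifit2 overlapped. These are counts of libraries without a test, in a set whose cells all held the inhibitor.

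Untreated cells of the sets were not at the same level for every gene, with 1476 of the 15788 genes (9.35%) at least 2-fold apart between the means of WT and DNT. Such genes made up 188 of the 2724 called by the difference. Of the 36 leading genes 11 had such log2 ratios of DNT over WT: Zfp608 (1.49), Stom (-1.06), Sema4a (1.84), Axin2 (-2.31), Tnip3 (-1.78), Gnb5 (-1.98), Gbp2 (-2.40), Atp6v1g2 (-1.14), Calhm6 (1.43), Gcnt4 (-1.25) and Cass4 (-1.50). Other genes described above had them too, among them Il2 (-2.53), Il10 (1.79), Cd160 (-1.47), Ccr4 (-1.34), Nr4a1 (-1.30), Fos (-1.25), Tnfsf14 (-1.11) and Socs2 (-1.07). In contrast, Slamf6 (-0.17), Cxcr3 (0.13), Zfp36 (-0.018), Ddx60 (0.067) and Adora2a (0.14) started from similar levels.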

How the data were processed

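RNA was sequenced from mouse T cells in 3 sets of 6 libraries, and the deposited files give whole-number counts per gene, 1 table per set. Per the submitters' processing notes, the aligner was HISAT2 2.1.0 and the build GRCm38. How reads were assigned to genes, and whether by strand, is not given in the sources used here. Symbols came from GENCODE M21. Genes in both tables were fitted with edgeR 4.0.16 in R 4.3.3 (TMM, filterByExpr, robust quasi-likelihood F test) on 4 group means, with 8 residual degrees of freedom, and p-values were adjusted over 15788 genes. The common biological coefficient of variation was 7.44%, and 10.6% in set 1 and 2.74% in set 2 fitted alone, so the shared dispersion is smaller than the spread of set 1 and larger than that of set 2. Standard errors were derived from the effect and its F statistic. The members, the 30 lists, the tests and the rule for naming genes were chosen with earlier results of these data known.

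Per class the rule named the 6 genes with the largest effect (for opposite genes, the largest smaller effect) among those with 5 CPM in a group, non-overlapping libraries and calls in all fits that left out 1 library. It also named the 3 members of each list with the smallest p of the difference and a panel of 14 genes; other members given as examples were chosen after their values were seen. One-ligand genes that led a class had the other effect's 95% interval within 0.5 of 0. Alternatives were RLE factors, library size only, TMM within each set, DESeq2 1.42.0, limma-voom (limma 3.58.1) without and with weights per set, all genes kept, a minimum of 1 CPM in 3 libraries, all 18 libraries, each set alone, glmTreat at 0.5, replicate blocks and leaving out each library. Using WTATPgs replicate 3 alone was added after seeing the data. The fit was tested on simulated counts. Promoter sequences are RefSeq's for GRCm38.p6. Values of a few list members are not reported here. Figures were drawn with Python 3.11.15 and matplotlib 3.10.9.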

Additional observations from a re-analysis of the deposited data

How the results depend on the processing

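Counts moved most with the number of libraries fitted, the fold tested against and the library that stood apart. With all 18 libraries in 1 fit, 302 differences were called, 142 genes responded to ATPgs only, 77 to adenosine only and 35 in opposite directions, and the single effects called 3299 and 2309 genes. Against a log2 change of 0.5 these numbers were 101, 49, 24 and 1, and 926 and 525. Leaving out 1 library at a time gave 1943 to 5367 differences, 702 to 1678 ATPgs-only, 502 to 1181 adenosine-only and 186 to 696 opposite genes, the highest without WTATPgs replicate 3; with replicate 3 as the only WTATPgs library, assumed to vary like the other groups, 453 genes were opposite. The cause was not tested. Scaling, filters, DESeq2 and limma-voom gave 2587 to 3051 differences.

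A block for replicate number gave 2531 differences, and blocks within each set 2215. Same-numbered libraries had correlations of deviations of -0.024 to 0.0090, so they share only a number, and the block moved the count of differences by less than 1.5 times. The blocks within each set ended the call for Gzmg, Adora2b, Ccl5 and Rpl6. Of 119 named differences called, 57 were lost with all 18 libraries, 83 against a log2 change of 0.5 and at most 6 under any other setting, and 0 changed sign. With WTATPgs replicate 3 alone the difference of Ifng was 0.30 and of Nr4a1 -0.29, and the ATPgs effects of Gdpd5, Sema6d and Tigit were 0.31, -0.11 and 0.12, each opposite in sign to the value from all 12 libraries. The uncalled ATPgs effects of Gbp2, Ddx60, Batf3, Bub1b and Adora2b turned sign as well, to 0.091, 0.11, 0.046, 0.046 and -0.021, and that of Cd2 to 0.0030. The difference had a median SE of 0.14 over genes tested.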
